A study of Arabidopsis thaliana with 30 samples.

Results

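The auxin response of the xylem-pole pericycle of the Arabidopsis thaliana root was read from 6 of the 30 arrays of the series, those titled as pericycle auxin 1 to 3 and pericycle control 1 to 3. All 22746 probe sets that are not array controls were taken, and 17000 of them passed a filter on low signal and were tested. Both groups were 1-week-old Col-0 seedlings carrying E3754, an enhancer trap line in which green fluorescent protein (GFP) marks the pericycle cells at the xylem poles. The auxin group had 5 µM indole-3-acetic acid (IAA, the main natural auxin) for 2 h, and the mock group had solvent alone. Cell walls were then digested for 1 h, and the fluorescent cells were sorted. The series' design text puts IAA at the same concentration in the digestion and does not say separately what the mock group's medium held. The cells compared are therefore those that a single reporter line marks, after treatment and digestion together. The other 3 sorted populations (the stele of pWOL::GFP, the epidermis with lateral root cap of pWER::GFP, and the columella of PET111) and undigested intact roots had the same treatment, again with 3 mock and 3 auxin arrays each. The labels do not say whether the pWOL::GFP population leaves out the pericycle, nor whether the arrays of a group come from different cultures. The p-values thus cover the spread between these samples alone, which may be technical.

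The pericycle is the outermost layer of the vascular cylinder, and in Arabidopsis its cells facing the xylem poles are the ones from which lateral roots start. Auxin acts in these cells through receptors that bring about the breakdown of Aux/IAA repressors, which frees auxin response factors to switch on target genes. Among those targets are the Aux/IAA genes themselves, GH3 enzymes that conjugate IAA to amino acids, and the transcription factors LBD16 and LBD29, which act in the first steps of lateral root formation.

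The label of the sorted cells was checked against markers of the tissue. XPP, a gene named for its expression in the xylem-pole pericycle, read 1109, 1786 and 1636 signal units in the mock pericycle arrays, against 122, 163 and 144 in mock stele, 31.1, 61.3 and 70.5 in mock epidermis and 70.1, 51.8 and 113 in mock columella. Every mock pericycle array lay above every array of the other sorted populations. The mock difference from the mean of the other 3 sorted tissues was 3.92 on the log2 scale (adjusted p = 1.71e-13), and such a difference in the higher direction was called for 8.67% of all probe sets (4.76% in the lower direction). In mock intact roots XPP read 2243, 1855 and 1593 units, which overlapped the mock pericycle arrays. The sorted pericycle thus did not stand above undigested whole roots in this marker. In the pericycle XPP spread widely under auxin, at 512, 1009.8 and 2079 units, and its change was not called (-0.52 ± 0.33, adjusted p = 0.318). That depended on auxin array 3. Without it, 2 of the 4 named pericycle markers were called higher and 1 lower, and XPP alone of the 4 had a negative change in the main fit. LBD16 was also higher in the mock pericycle than in the mean of the other mock sorted tissues, by 2.07 (adjusted p = 1.63e-08). ACR4, a receptor-like kinase of root stem cells and of the early lateral root, was at 38.3, 7.51 and 0.973 units in the mock pericycle, against 36.5, 19.5 and 33.1 in the mock stele. LBD29, also written as a pericycle marker, read 1.87, 2.36 and 19.7 units in the mock pericycle. It read 1.32, 6.85 and 2.16 in mock stele, 5.71, 1.70 and 6.08 in mock epidermis and 1.74, 2.14 and 39.8 in mock columella. The mock pericycle arrays of LBD29 thus overlapped those of each other sorted tissue. The remaining markers written for the pericycle (GATA23, PHO1, SKOR and AHP6) were on probe sets without a gene name here.

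Signals are given in linear array units, scaled by the authors so that arrays have a common trimmed mean. Changes are differences of log2(signal + 16), auxin minus mock, given with the standard error and adjusted p of a limma fit over all 30 arrays, and n is 3 arrays per group throughout. A probe set was called, and is said to have risen or fallen, at an adjusted p under 0.05. Array medians were 67.5 to 72.9 units in the mock pericycle and 76.1 to 81.0 units in the auxin pericycle, so the groups did not overlap in this measure. Its part in the calls was not tested directly, but with the arrays set to 1 distribution (quantile normalization) 2405 probe sets were called in place of 2326, 1071 higher and 1334 lower. Centring the arrays on their 75th percentile gave 1109 higher and 1165 lower, so which direction holds more calls depends on the scaling. Pairs of arrays correlated at 0.942 to 0.953 within the mock group, 0.924 to 0.949 within the auxin group and 0.902 to 0.924 between them (Pearson, log2 scale, across probe sets, which are not independent replicates).

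Auxin changed the pericycle transcriptome in both directions, and more of the changes over 8-fold were rises. Of the 17000 probe sets tested, 2326 were called (13.7%): 1220 rose (7.18%) and 1106 fell (6.51%). More than 2-fold changes numbered 691 upward and 561 downward, more than 4-fold changes 59 and 72, and more than 8-fold changes 21 and 8. All 3 auxin arrays lay above all 3 mock arrays for 13.6% of probe sets and below them for 11.1%. The median change over all probe sets was 0.070. Of 9321 genes that could be named and tested, 639 rose and 561 fell; another 548 rising and 516 falling probe sets had no gene name here. In sorted cells pooled on an array, fewer cells of a type and less RNA per cell cannot be told apart. Fitted to the 6 pericycle arrays alone, the same comparison called 904 probe sets, 425 higher and 479 lower.

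**Figure D1:**
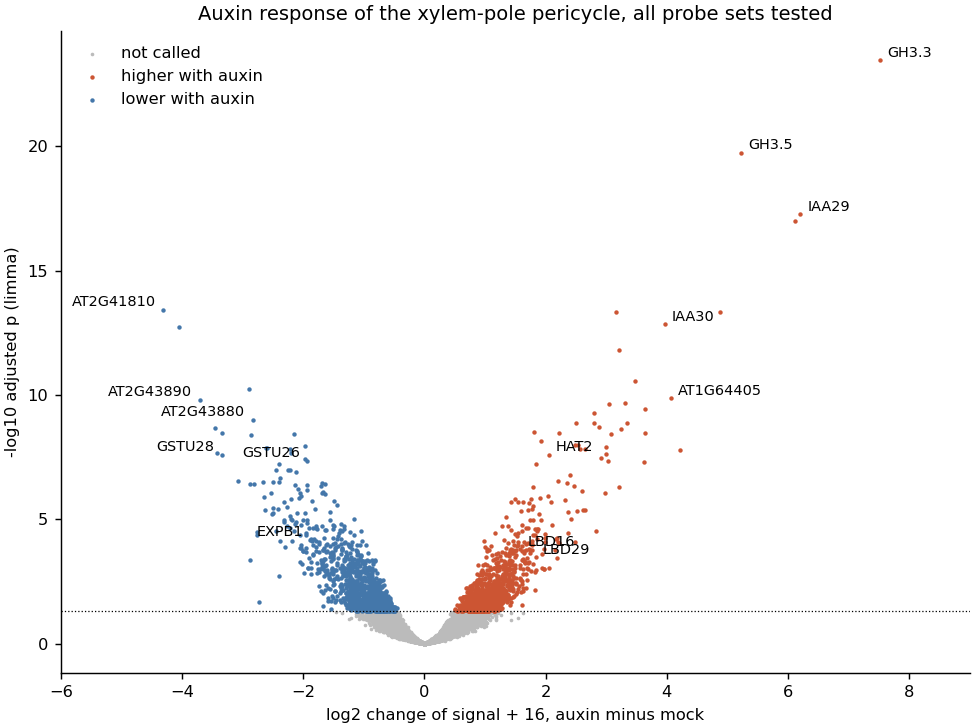
Log2 change of signal + 16 in the pericycle (x axis, auxin minus mock) against -log10 of the limma adjusted p (y axis) for the 17000 probe sets tested. Each point is 1 probe set, 1220 called higher and 1106 called lower, and the dotted line marks an adjusted p of 0.05; GH3.3, IAA29 and GH3.5 lie farthest to the right among named genes.

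The genes of auxin's own feedback stood at the head of the response. GH3.3, an enzyme that conjugates IAA to amino acids, read 31.8, 58.0 and 26.5 in the mock arrays and 10347, 8149.6 and 10980.3 in the auxin arrays, a log2 change of 7.52 ± 0.22, adjusted p = 3.47e-24. GH3.5, a second enzyme of this kind, read 144, 192 and 72.4 in the mock arrays and 5966, 5263 and 4857 in the auxin arrays (5.23 ± 0.20, adjusted p = 1.78e-20). In both genes each auxin array stood far above each mock array. GH3.1 read 430.2, 432 and 371 in the mock arrays and 1037, 1094 and 944 in the auxin arrays (1.29 ± 0.20, adjusted p = 1.82e-05), a smaller rise with the groups still apart. GH3.17, which also conjugates IAA, moved the other way: it read 479, 652 and 737 in the mock arrays and 373, 289.6 and 398 in the auxin arrays (-0.78 ± 0.21, adjusted p = 0.0117), a call that was lost without mock array 3 or without auxin array 2. GH3.9 read 11.1, 9.07 and 17.1 in the mock arrays and 42.6, 59.3 and 9.47 in the auxin arrays; auxin array 3 lay within the mock range and the change was not called (0.77 ± 0.35, adjusted p = 0.140). Of 11 GH3 genes written in the list, 5 were named and tested, of which 3 rose and 1 fell. These shares of 60% and 20% stood beside 7.18% and 6.51% of all probe sets, and 6.86% and 6.02% of all named genes tested. The median change was 1.29, beside 0.070 over all probe sets. This list and those below were chosen with earlier results of these data known, so such shares describe their members only.

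IAA29, an Aux/IAA repressor gene, had the largest rise of its family. Its signals were 4.45, 0.722 and 9.97 in the mock arrays and 1403, 1594 and 1553 in the auxin arrays (6.21 ± 0.29, adjusted p = 5.35e-18). IAA30 read 179, 157 and 179.6 in the mock arrays and 2550.2, 3046 and 3208 in the auxin arrays (3.97 ± 0.26, adjusted p = 1.41e-13), and its 3 mock arrays were close together. IAA20 read 1.85, 44.1 and 13.9 in the mock arrays and 85.1, 94.0 and 59.5 in the auxin arrays (1.57 ± 0.38, adjusted p = 0.00473), a call that was lost without mock array 1. IAA18 and IAA33 were not called: IAA18 went from a mean of 113 to 200.2 units (0.71 ± 0.29, adjusted p = 0.0920), with its 3 auxin arrays above the mock arrays, and IAA33 had a change of -0.28 with overlapping groups. In all, 3 of the 6 Aux/IAA genes tested rose, none fell, and the median change was 1.14, beside 7.18% rising and a median of 0.070 over all probe sets; 29 genes of the family were written in the list and 7 were named.

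**Figure D2:**
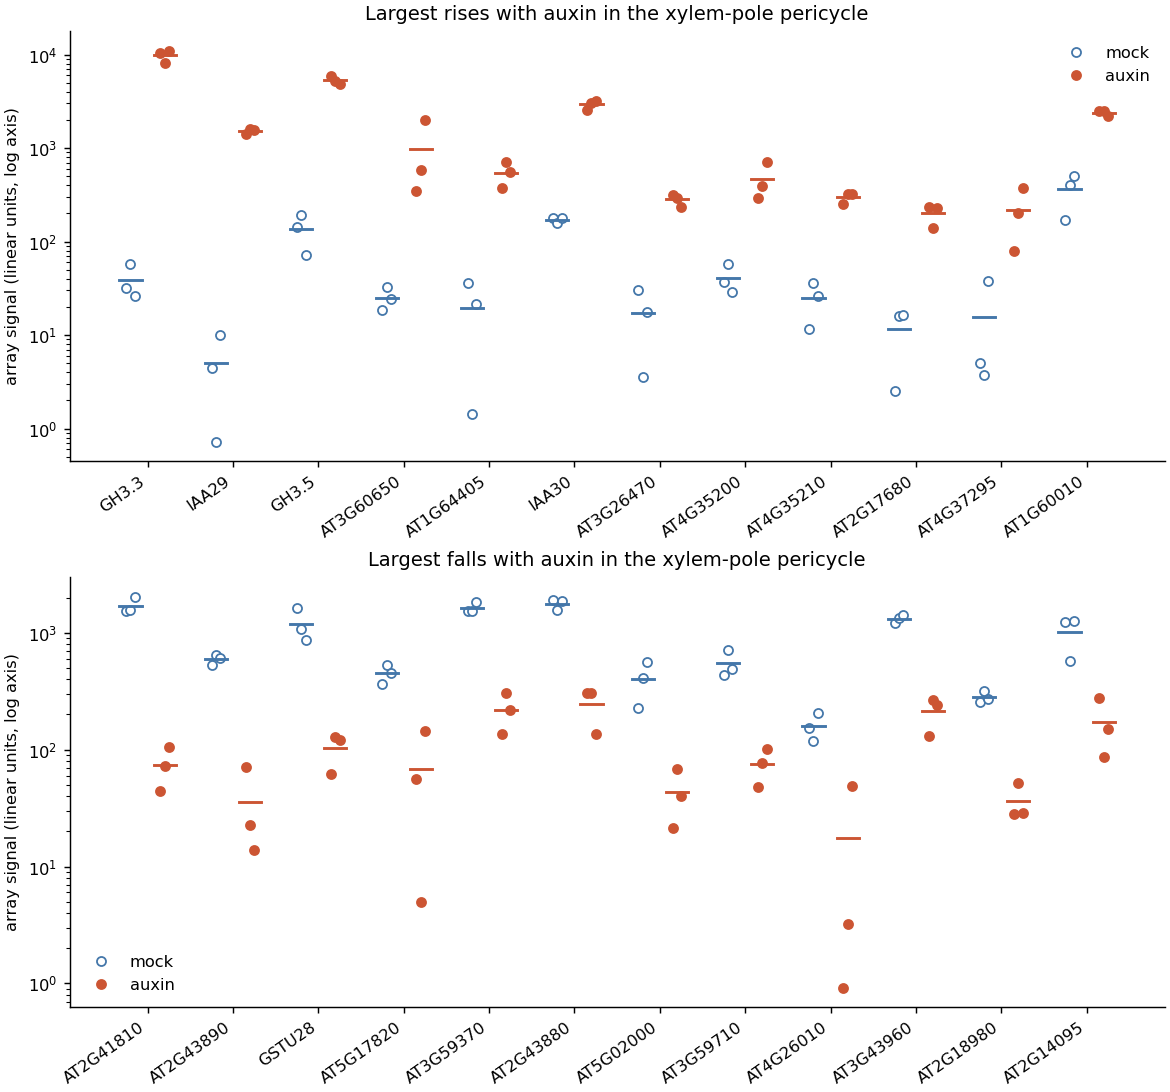
Signal of each array (y axis, linear units on a log axis) for the 12 named genes with the largest rises (upper panel) and the 12 with the largest falls (lower panel) in the pericycle. Open circles are the 3 mock arrays, filled circles the 3 auxin arrays and bars the group means; no mock and auxin group overlaps, which the rule for choosing these genes required.

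Both LBD genes of lateral root initiation rose. LBD16 read 168, 102 and 265 in the mock arrays and 467, 563 and 564 in the auxin arrays (1.58 ± 0.28, adjusted p = 0.000164), so that its lowest auxin array stood above its highest mock array. LBD29 read 1.87, 2.36 and 19.7 in the mock arrays and 45.8, 87.2 and 68.1 in the auxin arrays (1.84 ± 0.35, adjusted p = 0.000338); mock array 3 was the highest of the mock arrays and still below every auxin array. At such mock signals a difference of log2(signal + 16) understates the change. No detection calls were used here, and whether its mock signal exceeds background was not tested.

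LBD16 rose in every sample type, and LBD29 was called in the pericycle and in intact roots. LBD16 had a mock mean of 64.3 ± 27.2 units in the stele (SD, n = 3), 178 ± 82.1 in the pericycle, 13.8 ± 4.90 in the epidermis, 20.8 ± 5.69 in the columella and 218 ± 19.3 in intact roots. With auxin it rose in each of them, with log2 changes of 2.61 (stele), 1.73 (epidermis), 1.49 (columella) and 1.69 (intact roots). Its pericycle response did not differ detectably from the mean of the other 3 sorted tissues (-0.37 ± 0.33, adjusted p = 0.665). Ordered by auxin mean, intact roots (739 ± 42.1) were above the pericycle (531 ± 55.8) and the stele (472 ± 180.5), whose arrays overlapped, and the columella (88.0 ± 21.4) and epidermis (82.7 ± 14.1) also overlapped with each other. For LBD29 the changes were 0.53 (stele), -0.038 (epidermis) and -0.28 (columella), none of which was called. The pericycle response of LBD29 exceeded the mean of these 3 by 1.77 ± 0.40, adjusted p = 0.0163; over 35 alternatives that adjusted p ran from 0.00687 to 0.160, and the call was lost without mock array 1, without mock array 2, without auxin array 2 and with a pseudocount of 1. In intact roots LBD29 went from 24.2, 21.4 and 22.3 units to 1645, 2045 and 1894 units, a change that exceeded the pericycle one by 3.76 ± 0.49, adjusted p = 2.17e-06; with a pseudocount of 1 this difference was not called (adjusted p = 0.230, the highest of 22 alternatives, the others all being called).

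**Figure D3:**
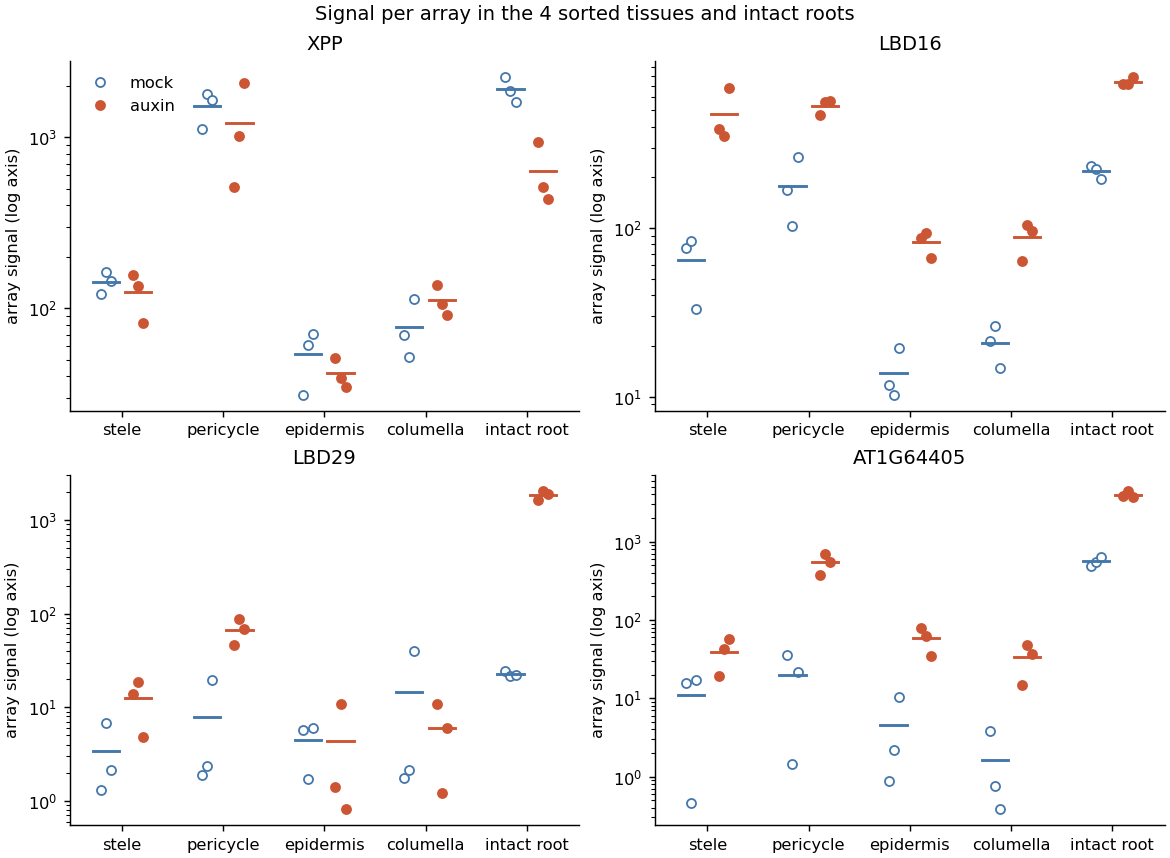
Signal of each array (y axis, linear units on a log axis) for XPP, LBD16, LBD29 and AT1G64405 in the 4 sorted populations and in intact roots. Open circles are mock arrays, filled circles auxin arrays and bars group means of 3; LBD16 is higher with auxin in all 5 sample types, while among sorted cells the LBD29 and AT1G64405 auxin arrays are highest in the pericycle.

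Of 25 genes written for lateral root initiation, 6 were named and 5 tested. Of these 2 rose (40%, beside 7.18% of all probe sets) and none fell (beside 6.51%). The rises were LBD16 and LBD29, which were given as markers with this comparison. The median was 0.91, beside 0.070 over all probe sets. With quantile normalization 1 member was called lower. Without mock array 1, or without auxin array 3, 3 members were called higher. PUCHI, a transcription factor of early lateral root primordia, went from a mean of 2.13 to 20.4 units (0.91 ± 0.35, adjusted p = 0.0795); it was singled out after its value was seen. ACR4 was not called (0.66 ± 0.33, adjusted p = 0.186). RALFL34, a small peptide of the lateral root founder cells, had all 3 auxin arrays below the mock arrays and was not called (-0.68 ± 0.26, adjusted p = 0.0739). PLT4/BBM, a transcription factor of the root stem cell niche, was not called either (1.03 ± 0.41, adjusted p = 0.0901), and its groups overlapped. No gene of the auxin receptors, auxin response factors or cytokinin lists was tested.

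HAT2 and WAG2 also rose. HAT2, a homeodomain-leucine zipper gene known to be induced by auxin, read 252, 234 and 112 in the mock arrays and 799, 856 and 845 in the auxin arrays (2.05 ± 0.22, adjusted p = 2.50e-08). WAG2, a kinase that acts on auxin efflux carriers, read 383, 627 and 544 in the mock arrays and 1041, 1092 and 837 in the auxin arrays (0.93 ± 0.26, adjusted p = 0.0151); this call was lost without mock array 1 or without auxin array 2. The groups of both genes did not overlap. None of 3 genes tested for auxin synthesis and breakdown was called, among them DAO1, which oxidises IAA (-0.30 ± 0.28, adjusted p = 0.522), and UGT74D1, which glucosylates it (0.39 ± 0.32, adjusted p = 0.456). Neither ethylene gene tested was called, with EIN3 at -0.091 and RTE1 at 0.94.

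The remaining large rises were mostly in genes with little annotation. AT3G60650 read 18.6, 32.5 and 24.5 in the mock arrays and 347, 589.9 and 1976 in the auxin arrays (4.22 ± 0.45, adjusted p = 1.69e-08), with auxin array 3 well above the other auxin arrays. AT1G64405 read 35.7, 1.43 and 21.7 in the mock arrays and 373, 705 and 555 in the auxin arrays (4.07 ± 0.35, adjusted p = 1.38e-10). The plot of levels across tissues shows its auxin arrays in the pericycle far above those of other sorted cells and below those of intact roots. AT4G35200 and AT4G35210, neighbouring genes of the DUF241 family, rose by 3.00 and 2.99, and AT2G17680 of the same family by 2.99. AT3G26470, which carries an RPW8 domain known from disease resistance proteins, read 30.1, 3.57 and 17.5 in the mock arrays and 318, 294 and 237 in the auxin arrays (3.25 ± 0.32, adjusted p = 2.27e-09). AT4G37295 read 5.02, 3.72 and 38.0 in the mock arrays and 80.0, 200.1 and 378 in the auxin arrays (2.84 ± 0.45, adjusted p = 2.84e-05), and AT1G60010 rose by 2.80 from 361 ± 171 units. Among probe sets without a gene name, 262099_s_at read 3.00, 11.9 and 42.0 in the mock arrays and 2354, 2036 and 2069.7 in the auxin arrays (6.11 ± 0.30, adjusted p = 9.71e-18) and 250709_at read 8.27, 4.81 and 20.2 in the mock arrays and 306, 237 and 417 in the auxin arrays (3.64 ± 0.33, adjusted p = 3.69e-10).

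The 12 largest named falls included 3 class III peroxidases and 2 genes of the polygalacturonase type. AT2G41810, a DUF642 cell wall protein, read 1519, 1556 and 2027 in the mock arrays and 43.8, 72.0 and 104 in the auxin arrays (-4.31 ± 0.27, adjusted p = 3.68e-14). AT2G43890, of the polygalacturonase type that cuts pectin, read 525, 650.0 and 611 in the mock arrays and 71.5, 22.5 and 13.9 in the auxin arrays (-3.71 ± 0.32, adjusted p = 1.58e-10), and its neighbour AT2G43880 read 1888, 1557 and 1879 in the mock arrays and 304, 302 and 137 in the auxin arrays (-2.84 ± 0.26, adjusted p = 9.86e-10). All auxin arrays lay far below all mock arrays in these 3 genes. GSTU28, a tau-class glutathione S-transferase, read 1638, 1084 and 871 in the mock arrays and 61.9, 127 and 122 in the auxin arrays (-3.34 ± 0.36, adjusted p = 2.50e-08). The peroxidases were AT5G17820 (-2.89), AT4G26010 (-2.63) and AT2G18980 (-2.54). Their auxin arrays differed among themselves: AT5G17820 read 367, 525 and 456 in the mock arrays and 56.1, 4.95 and 144 in the auxin arrays, and AT4G26010 read 153, 118 and 206 in the mock arrays and 0.917, 3.22 and 48.8 in the auxin arrays, with the highest auxin array in each case array 3. AT3G43960, a papain-type protease, fell by 2.60, and AT3G59710, of the short-chain dehydrogenase type, fell by 2.64. AT3G59370, AT5G02000 and AT2G14095 completed the 12 largest falls, at -2.86, -2.81 and -2.52. The unnamed probe set 255591_at read 695, 621 and 855 in the mock arrays and 50.1, 18.8 and 21.7 in the auxin arrays (-4.05 ± 0.27, adjusted p = 1.80e-13).

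Among wall enzymes, several pectin-cutting genes fell and none was called higher. The loci of the polygalacturonase and pectate lyase list were written after values had been seen. Its counts therefore describe these members only and cannot show an excess over all probe sets. Of 22 polygalacturonases and pectate lyases tested, 8 fell, 36.4% beside 6.51% of all probe sets, with a median of -0.35. Beside the genes above these were AT3G59850, which read 649, 889.9 and 1009 in the mock arrays and 229, 246 and 99.0 in the auxin arrays (-2.13 ± 0.25, adjusted p = 1.28e-07), and AT5G48900, a pectate lyase, which read 2503, 2631 and 3499 in the mock arrays and 663, 857 and 1120.1 in the auxin arrays (-1.71 ± 0.21, adjusted p = 4.62e-07). AT3G24670, AT1G67750, AT2G43870 and AT3G07010 changed by -1.38, -1.25, -0.95 and -0.95, all called. The call for AT1G67750 was lost without mock array 2, that for AT2G43870 without mock array 1, and that for AT3G07010 without any one of mock arrays 1 and 2 and the 3 auxin arrays; AT2G43870 and AT3G07010 were named after their values were seen. Neither of the 2 pectin methylesterases tested was called.

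Of 23 expansins and xyloglucan endotransglucosylases tested, which loosen or remodel the wall, 5 fell (21.7%, beside 6.51% of all probe sets) and 2 rose (8.70%, near the 7.18% of all probe sets), and the median was 0.21. EXPA4 read 118, 128 and 100.1 in the mock arrays and 292, 464 and 334 in the auxin arrays (1.51 ± 0.34, adjusted p = 0.00233), while the beta-expansin EXPB1 read 232, 135 and 109 in the mock arrays and 19.6, 32.4 and 37.3 in the auxin arrays (-1.89 ± 0.32, adjusted p = 6.75e-05). XTH16 read 195, 118 and 119 in the mock arrays and 36.4, 25.3 and 43.3 in the auxin arrays (-1.63 ± 0.28, adjusted p = 0.000111). The groups did not overlap in any of these 3. EXPA9 fell by 0.88, from a mean of 6189 to 3485 units, and EXLA3 rose by 1.17, a call lost without mock array 2, mock array 3, auxin array 1 or auxin array 3; both were singled out after their values were seen. XTH19 and XTH18 were not called (0.21 and 0.42). CSLA03, a glucomannan synthase gene, fell by 1.00, a call lost without mock array 1, without mock array 2 or without auxin array 3.

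EXPA7 and EXPA18, expansins of growing root hairs and hence markers of another cell type, fell, with changes of -1.50 and -1.95. EXPA18 read 43.1, 44.5 and 211 in the mock arrays and 1.78, 3.86 and 23.5 in the auxin arrays, and EXPA7 read 105, 52.4 and 116 in the mock arrays and 9.71, 18.3 and 39.0 in the auxin arrays. Of 11 epidermis and root hair markers written, 3 were named; their summed signal was 115 to 347 units in the mock pericycle and 12.2 to 88.4 units in the auxin pericycle, against 527 to 754 units in the mock epidermis and 51.8 to 70.2 in the auxin epidermis. It was 143 to 301 units in mock and 36.9 to 77.3 in auxin stele, and 225 to 430 and 28.1 to 66.4 in columella. In intact roots it was 2551 to 2820 in mock and 2636 to 3220 in auxin arrays, so the fall was seen in sorted samples only. The responses of EXPA7 and EXPA18 were higher in intact roots than in the pericycle, by 1.75 and 1.87 (adjusted p = 0.0205 and 0.0178). The part of epidermis and root hair cells in the falls of the pericycle samples was not tested. XTH26 had overlapping groups and was not called (-0.61 ± 0.35, adjusted p = 0.262). The summed signal of the 2 named stele markers ran from 129 to 272 units in mock and 149 to 252 in auxin arrays of the pericycle, and that of the 4 named endodermis and cortex markers from 449 to 650 and 425 to 552, so these ranges overlapped. In mock arrays of the other samples the endodermis and cortex sum was 320 to 367 units in stele and 151 to 296 in epidermis. It was 341 to 843 in columella and 1247 to 1388 in intact roots. None of the 8 columella and root cap markers written was named.

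**Figure D4:**
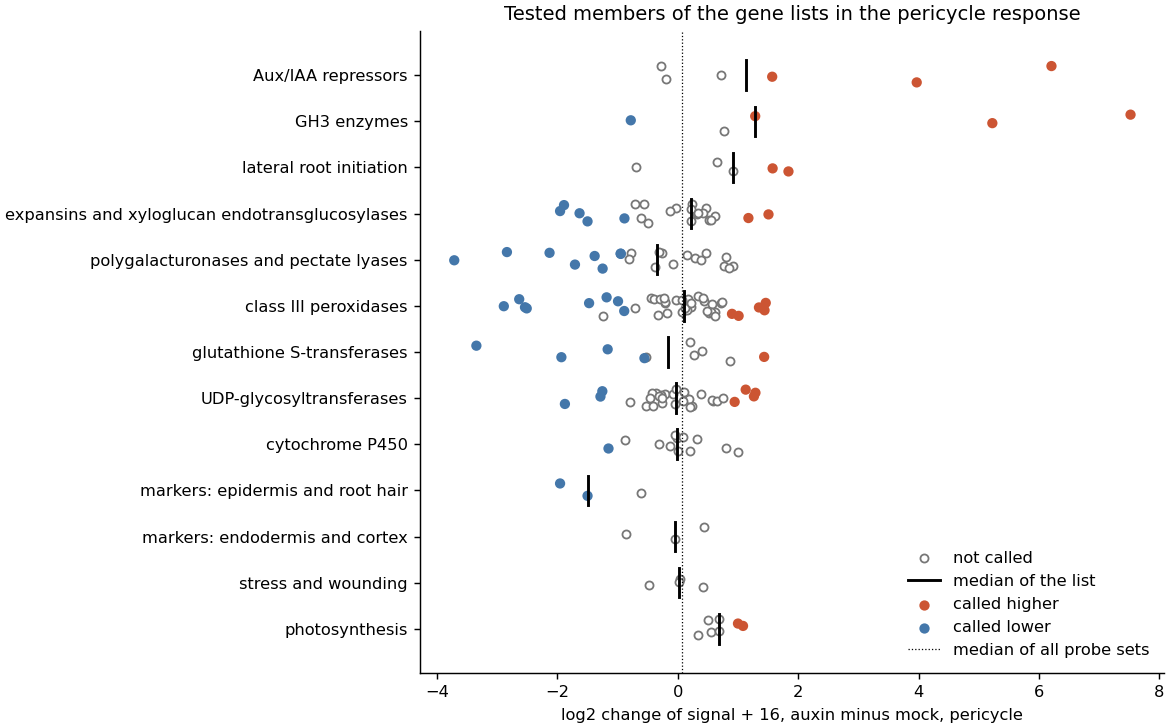
Log2 change of signal + 16 in the pericycle (x axis, auxin minus mock) for every tested member of 13 gene lists (rows). Filled circles were called, open circles were not, vertical bars are list medians and the dotted line is the median of all probe sets, 0.070. Polygalacturonases and pectate lyases have 8 called members, all lower, and peroxidases 8 lower and 5 higher. The loci of these lists were written after values had been seen.

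Class III peroxidases, which use hydrogen peroxide to cross-link or loosen the wall, formed the largest family tested. The loci of this list were also written after values had been seen, so its counts describe these members only. Of 42 members, 5 rose (11.9%) and 8 fell (19.0%), beside 7.18% and 6.51% of all probe sets, and the median was 0.098. Without auxin array 1 these counts were 3 and 5, with the rises of AT4G16270 and AT2G22420 and the falls of AT1G30870, AT2G39040 and AT4G11290 no longer called. AT3G01190 read 1577, 2576 and 2120.2 in the mock arrays and 257, 272 and 592 in the auxin arrays (-2.51 ± 0.36, adjusted p = 5.69e-06), with every auxin array below every mock array. The 2 largest rises, named after their values were seen, were AT5G19890 (1.46 ± 0.26, adjusted p = 0.000166), from a mean of 309 to 870.3 units, and AT5G64100 (1.44 ± 0.26, adjusted p = 0.000230), from 743 to 2006 units.

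Of 10 glutathione S-transferases tested, 1 rose and 4 fell (beside 7.18% and 6.51% of all probe sets), with a median of -0.16. Besides GSTU28, GSTU26 read 2814, 3104 and 3124 in the mock arrays and 627, 841 and 889 in the auxin arrays (-1.93 ± 0.22, adjusted p = 4.57e-08) and GSTU27 read 1469.7, 1953 and 1905 in the mock arrays and 728, 793 and 815 in the auxin arrays (-1.16 ± 0.19, adjusted p = 4.35e-05). GSTU18 rose instead, from 113, 93.5 and 151 to 277, 355 and 415 units (1.44 ± 0.28, adjusted p = 0.000519), and its groups were as fully apart. The remaining fall, singled out after its value was seen, was GSTU22 (-0.55 ± 0.19, adjusted p = 0.0467). Its call was lost in 12 of 18 alternatives, among them the omission of any single pericycle array but mock array 2. GSTU25 and GSTU20 had overlapping groups and were not called. Among 32 UDP-glycosyltransferases, 4 rose and 3 fell, shares of 12.5% and 9.38% that lay near the 7.18% and 6.51% of all probe sets, and the median was -0.033. UGT76C2, which inactivates cytokinins by N-glucosylation, read 57.1, 51.6 and 61.1 in the mock arrays and 133, 159.8 and 186 in the auxin arrays (1.27 ± 0.24, adjusted p = 0.000444), and UGT71C1 read 74.1, 104 and 99.5 in the mock arrays and 1.58, 20.9 and 22.9 in the auxin arrays (-1.87 ± 0.37, adjusted p = 0.000547). UGT76D1 rose by 1.29, a call lost without mock array 3, as was that of UGT78D1, and UGT71B1 fell by 1.28, a call lost without mock array 1, mock array 2 or auxin array 1. Of 12 cytochrome P450 genes, CYP78A9 alone was called (-1.16 ± 0.35, adjusted p = 0.0242), and not without mock array 3, auxin array 1 or auxin array 3. That is 8.33% falling, near the 6.51% of all probe sets.

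Most photosynthesis genes were not called. All 7 tested had a change above 0, from 0.34 to 1.08 with a median of 0.68, and 2 of them rose, 28.6% beside 7.18% of all probe sets. PRK, an enzyme of the Calvin cycle, read 95.3, 143 and 90.3 in the mock arrays and 283, 237 and 184 in the auxin arrays (1.00 ± 0.27, adjusted p = 0.0110), and LHCB4.3, an antenna protein, rose by 1.08 from a mean of 19.9 units. Both calls depended on single arrays, PRK on mock array 3 and on auxin array 1, LHCB4.3 on mock array 1 and on auxin array 3. SBPASE, also of the Calvin cycle, read 1.27, 35.9 and 1.48 in the mock arrays and 65.2, 63.7 and 129 in the auxin arrays (1.97 ± 0.41, adjusted p = 0.000982). PORB, which makes chlorophyllide, read 3.97, 34.2 and 25.3 in the mock arrays and 64.8, 107 and 103 in the auxin arrays (1.61 ± 0.50, adjusted p = 0.0269) and was not called without mock array 1, auxin array 2 or auxin array 3.

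Few genes of growth and stress could be tested. None of 3 histone genes was called, and HTB2 had all 3 auxin arrays above the mock arrays (0.61 ± 0.23, adjusted p = 0.0721). PRL, the replication licensing factor MCM7 and the single cell cycle gene tested, read 183, 129 and 182 in the mock arrays and 196, 134 and 42.3 in the auxin arrays (-0.54 ± 0.31, adjusted p = 0.249), with overlapping groups. None of 4 stress and wounding genes was called, from WRKY6 at -0.48 to ZAT10 at 0.41; CML38, a calmodulin-like gene, was at 5145 ± 1150.4 units in the mock and 5138 ± 448 units in the auxin arrays (SD, n = 3). AT5G14520, the ribosome biogenesis gene tested, was not called (0.72 ± 0.27, adjusted p = 0.0744).

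Much of the pericycle response was shared with the other sorted tissues, which have mock arrays of their own. Of the 1220 probe sets that rose in the pericycle, 619 also rose in the stele (50.7% of the pericycle rises and 25.6% of the stele rises), 378 in the epidermis (31.0% and 35.4%) and 315 in the columella (25.8% and 45.9%). Of the 1106 that fell, the falls shared with stele numbered 634 (57.3% and 32.4%), those with epidermis 523 (47.3% and 39.8%) and those with columella 352 (31.8% and 51.5%). In all 4 tissues 201 rose and 273 fell. These shares are read against the number of calls in the same direction in each tissue. The stele had 2416 rises and 1956 falls among the 17000 probe sets, the epidermis 1067 and 1314, and the columella 686 and 683. Calls in either direction made up 25.7% of probe sets for stele, 14.0% for epidermis and 8.05% for columella. Over the 17000 probe sets the pericycle changes correlated with those of the stele at r = 0.609, the epidermis at 0.590 and the columella at 0.593, as a description of genes measured on one platform.

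The difference between the pericycle response and the mean of the other 3 was tested directly and was called for 219 probe sets (1.29%), 157 with a higher and 62 with a lower value in the pericycle. This comparison shares the pericycle arrays with the response itself. Of the 478 probe sets that rose in the pericycle and in no other sorted tissue, the difference was called for 47, and of the 366 that fell in no other, for 27, so most of these were not shown to be particular to the pericycle. The count depended on single arrays: it was 124 without mock array 3 of the pericycle and 134 without its auxin array 3.

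Genes that differed did so in more than one way. AT1G64405 rose in all 4 tissues, and its pericycle change of 4.07 stood beside 1.03 (stele), 1.84 (epidermis) and 1.42 (columella), a difference of 2.63 ± 0.40, adjusted p = 0.000235. AT4G37295 had changes of 0.67 (stele), 0.22 (epidermis) and 0.089 (columella), none of them called, against 2.84 in the pericycle (2.51 ± 0.52, adjusted p = 0.00727), and this call was lost without auxin array 3 of the pericycle. AT1G68620, an alpha/beta hydrolase, read 99.5, 107 and 151 in the mock arrays and 401, 477 and 534 in the auxin arrays, while its changes elsewhere were -0.27 (stele), -0.41 (epidermis) and -0.35 (columella), none of them called (difference 2.20 ± 0.36, adjusted p = 0.000461). AT5G35580, a receptor-like cytoplasmic kinase, rose in the pericycle (1.22) and fell in the epidermis (-1.08) and columella (-0.87), with a difference of 2.05 ± 0.31, adjusted p = 0.000230. Unnamed probe set 250709_at had changes of -0.12 (stele), 0.21 (epidermis) and 0.42 (columella), against 3.64 in the pericycle, the largest difference in this set of named results (3.47 ± 0.38, adjusted p = 1.01e-06).

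Some differences were in genes called in other tissues and not in the pericycle. AT1G33700, of the glucosylceramidase type, read 506, 371 and 707 in the mock arrays and 847, 389 and 851 in the auxin arrays and was not called, while its changes in epidermis and columella were -4.39 and -3.52 (3.23 ± 0.37, adjusted p = 2.35e-06). AT2G38790 was likewise not called in the pericycle (0.42) and fell in each of the other 3 (2.28 ± 0.35, adjusted p = 0.000289). AT3G28580, which encodes an ATPase of the AAA type, was called higher in epidermis (3.09) and columella (3.64) but not in the pericycle (0.48); the difference (-1.58 ± 0.41, adjusted p = 0.0393) was lost in 17 of 35 alternatives. Other genes fell in the pericycle and were not called in the other sorted tissues. AT2G42900, of the basic secretory protein type, read 47.7, 51.8 and 72.5 in the mock arrays and 28.7, 7.15 and 2.53 in the auxin arrays (difference -1.76 ± 0.38, adjusted p = 0.00873). AT5G38850, a TIR-NBS-LRR resistance gene, and AT5G65560, a pentatricopeptide repeat gene, fell as well, with changes of -1.75 and -1.01, and differed from the other tissues by -1.80 and -1.61; the fall of AT5G65560 was not called without mock array 1 or auxin array 3. These 3 differences were lost without auxin array 3 of the pericycle, and that of AT5G38850 also without its mock array 3 or auxin array 2.

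**Figure D5:**
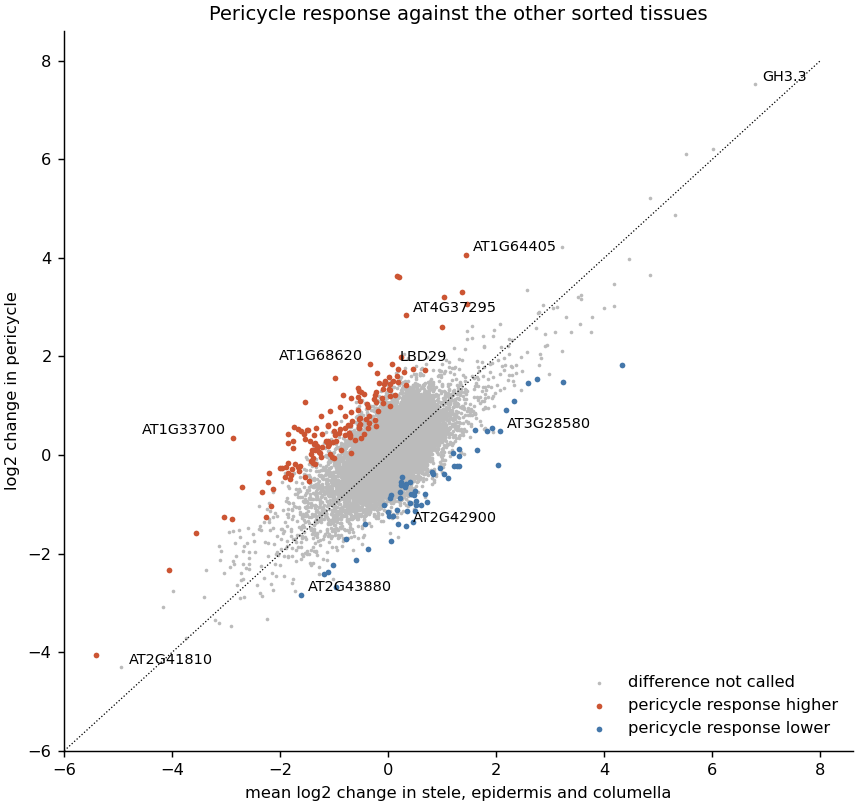
Log2 change in the pericycle (y axis) against the mean log2 change in stele, epidermis and columella (x axis) for the 17000 probe sets tested, with the line of equal change dotted. Coloured points are the 157 probe sets with a higher and the 62 with a lower pericycle response by the test of the difference; GH3.3 lies near the line and AT1G64405 above it.

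For the largest rises and falls the difference was seldom called. GH3.3 changed by 7.74 (stele), 6.29 (epidermis) and 6.35 (columella) and differed in the pericycle by 0.73 ± 0.26, adjusted p = 0.171. IAA29 changed by 6.13 (stele), 6.00 (epidermis) and 5.90 (columella) (difference 0.20 ± 0.34, adjusted p = 0.848). AT2G41810, with the deepest named fall, changed by -4.10 (stele), -5.40 (epidermis) and -5.33 (columella) (difference 0.63 ± 0.31, adjusted p = 0.362). Of the 12 named rises AT1G64405 and AT4G37295 differed from the other tissues, and of the 12 named falls AT2G43880 did (-1.22 ± 0.31, adjusted p = 0.0331), a call lost without mock array 1, mock array 3 or auxin array 3 of the pericycle. Other members of the families above differed as well. GSTU18 had changes of -0.24 (stele), 0.17 (epidermis) and 0.19 (columella) (difference 1.40 ± 0.33, adjusted p = 0.0196). That call was lost without mock array 2 or auxin array 3 of the pericycle. The difference was 1.64 for AT5G19890 (adjusted p = 0.00215), 1.74 for EXLA3 and 1.46 for AT1G49570 (adjusted p = 0.0312 and 0.0304). UGT73D1, which fell in the pericycle, differed by 1.02 (adjusted p = 0.0312). UGT85A2 (0.95, adjusted p = 0.0201) and AT4G01890 (1.71, adjusted p = 0.0312) differed and were not called in the pericycle. For these members other than GSTU18, dependence of the difference on single arrays was not examined.

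Against the stele alone, 278 probe sets responded differently (1.64%), 225 with a higher and 53 with a lower value in the pericycle. The count was 135 without stele auxin array 2, 168 without pericycle auxin array 3 and 399 without pericycle auxin array 1, at the other extreme. The largest difference among named genes was that of AT1G64405 (3.03 ± 0.49, adjusted p = 0.000626). Some others fell in the stele and were not called in the pericycle. AT5G12340 had a stele change of -2.30 and a pericycle change of 0.62 (2.92 ± 0.44, adjusted p = 0.000353), and AT5G38710, a proline dehydrogenase gene, changes of -2.67 and 0.14 (2.81 ± 0.48, adjusted p = 0.00121). AT1G28160, of the ERF transcription factor family, fell by 3.43 in the stele and read 17.8, 47.1 and 65.9 in the mock arrays and 34.6, 14.1 and 8.97 in the auxin arrays in the pericycle (2.70 ± 0.48, adjusted p = 0.00220), a difference that was not called with a pseudocount of 1 (adjusted p = 0.136) and was called in the other 22 of 23 alternatives. In the lower direction AT1G54050, of the small heat shock protein type, rose by 2.31 in the stele and was not called in the pericycle, at 0.30 (difference -2.01 ± 0.39, adjusted p = 0.00422), and AT3G56500 was called in opposite directions, at 1.42 (stele) and -1.13 (pericycle), with a difference of -2.55 ± 0.47, adjusted p = 0.00262. Its pericycle call was lost without mock array 1 or auxin array 1.

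Intact roots, which hold all tissues and were neither digested nor sorted, responded differently from the sorted pericycle at 1186 probe sets (6.98%), 600 with a higher and 586 with a lower value in intact roots. Cell mixture, digestion, sorting and length of exposure to IAA all separate these samples and cannot be told apart. Of the 1220 pericycle rises 312 also rose in intact roots (25.6% of the pericycle rises and 25.4% of the intact root rises) and 23 fell; of the 1106 falls 266 also fell (24.1% and 24.2%) and 38 rose. Of all 17000 probe sets, 1229 rose and 1098 fell in intact roots, 13.7% called in all. Over the 17000 probe sets the changes correlated at r = 0.321.

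Some wall genes that fell in the pericycle rose in intact roots. AT1G67750, a pectate lyase, read 193, 231 and 122 in the mock arrays and 107, 49.5 and 49.9 in the auxin arrays in the pericycle and rose by 4.46 in intact roots (5.71 ± 0.46, adjusted p = 7.10e-11 for the difference). AT3G59850, of the polygalacturonase type, fell by 2.13 in the pericycle and rose by 3.42 in intact roots (5.55 ± 0.35, adjusted p = 9.21e-14). The peroxidase AT2G18980 fell by 2.54 and rose by 2.18 (4.72 ± 0.47, adjusted p = 7.29e-09). Of the 22 polygalacturonases and pectate lyases, 7 had a called difference with the higher value in intact roots, beside 3.53% of all probe sets. None had one with the lower value, beside 3.45%. The loci of this list were written after values had been seen, so these counts describe its members only. GH3.1 rose in both, from 23.7, 27.1 and 23.8 to 2222, 2064 and 2176 units in intact roots, a change larger by 4.44 ± 0.28, adjusted p = 9.06e-14. AT2G03850, of the late embryogenesis abundant type, and AT3G03170 rose by 4.49 and 4.57 in intact roots and were not called in the pericycle.

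Several photosynthesis genes had a lower response in intact roots than in the pericycle. PORB, SBPASE and LHCB4.2 had changes of -1.31, -0.85 and -2.24 in intact roots, of which the last was called, against 1.61, 1.97 and 0.55 in the pericycle, of which the last was not called. The differences were -2.92 ± 0.70, adjusted p = 0.00742 for PORB, -2.82 ± 0.58, adjusted p = 0.00156 for SBPASE and -2.79 ± 0.41, adjusted p = 1.60e-05 for LHCB4.2, and 4 of the 7 photosynthesis genes of the list had a called difference with the lower value in intact roots, beside 3.45% of all probe sets. AT3G26470, the RPW8 domain gene that rose in every sorted tissue, was not called in intact roots, at -0.24 (difference -3.49 ± 0.45, adjusted p = 1.44e-06). AT1G19900, of the glyoxal oxidase type, and AT4G37220, of the cold-acclimation WCOR413 type, fell in intact roots and were not called in the pericycle, with differences of -3.23 and -3.05.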

How the data were processed

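The authors deposited 1 intensity per probe set and array, a signal on a linear scale; per the submitters' processing notes MAS5 was used. Its version, the chip definition and a build are not stated there. With the lowest and highest 2% of probe sets left out, the mean was the same on every array, as tested on the file, and no detection calls were used. RNA was amplified before labelling, per the labels' protocols, which can compress or distort differences. Arrays give no read depth; their number, 3 per group, limits the precision.

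Of 22810 probe sets, 64 controls were left out and 17000 were tested, those above the 40th percentile of their array in at least 3 of 30 arrays. The platform annotation gives 1 gene for 13513 probe sets, several for 503 and none for 8730, and 13436 of the first were found in the RefSeq gene table of TAIR10.1, used for names only. Where several probe sets named 1 gene, the one with the highest mean log2 signal over all arrays was used. No sequences were printed.

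log2(signal + 16) was fitted in limma 3.58.1 (R 4.3.3) with 10 group means over 30 arrays (20 residual degrees of freedom, median residual SD 0.34 log2) and empirical Bayes with an intensity trend. A pseudocount of 16 understates changes of low signals. Contrasts were the pericycle response, that response minus the mean of the other 3 sorted tissues or minus the stele, and the intact root response minus it. P-values are two-sided and adjusted by Benjamini-Hochberg over the 17000 probe sets. The procedure was tested on simulated data. Genes named are the 12 largest rises and falls among called genes whose groups do not overlap, the 6 largest differences each way per contrast, and per list up to 4 called members by size and 2 others by level. The members and lists were chosen with earlier results of these data known, and the loci of the peroxidase, polygalacturonase and pectate lyase lists were written after values had been seen. Alternatives changed the pseudocount, filter, normalization, features, weights, trend, block and samples. Figures were drawn with matplotlib 3.10.9.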

Additional observations from a re-analysis of the deposited data

Results flagged for a closer look

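The results here are a selection of those for which the response of the pericycle differed from that of another sample type. The test was that of the difference itself, in log2 units. Some family members with a called difference, given above, are not repeated. No cause was tested for any of them.

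The pericycle response minus the mean response of the stele, epidermis and columella was 3.47 for 250709_at, 3.23 for AT1G33700, 2.63 for AT1G64405, 2.51 for AT4G37295, 2.28 for AT2G38790, 2.20 for AT1G68620, 2.05 for AT5G35580, 1.77 for LBD29, 1.40 for GSTU18 and 1.36 for 255591_at, with adjusted p up to 0.0196. It was -1.80 for AT5G38850, -1.76 for AT2G42900, -1.65 for ATJ1, -1.61 for AT5G65560, -1.58 for AT3G28580, -1.55 for AT5G62330, -1.48 for AT3G56500, -1.44 for AT1G22670, -1.22 for AT2G43880 and -0.93 for AT5G48900, with adjusted p up to 0.0488.

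The pericycle response minus the stele response was 3.03 for AT1G64405, 2.92 for AT5G12340, 2.81 for AT5G38710, 2.72 for AT4G22610, 2.70 for AT1G28160 and 2.60 for AT4G19720, with adjusted p up to 0.0169. It was -2.55 for AT3G56500, -2.33 for AT1G51750, -2.19 for AT1G79910, -2.01 for AT1G54050, -1.99 for AT3G46650 and -1.96 for AT1G22670, with adjusted p up to 0.0430.

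The intact root response minus the pericycle response was 5.71 for AT1G67750, 5.55 for AT3G59850, 4.89 for AT3G03170, 4.72 for AT2G18980, 4.54 for AT2G03850, 4.44 for GH3.1 and 3.76 for LBD29, with adjusted p up to 2.17e-06. It was -3.49 for AT3G26470, -3.23 for AT1G19900, -3.05 for AT4G37220, -2.92 for PORB, -2.82 for SBPASE and -2.79 for LHCB4.2, with adjusted p up to 0.00742.

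Leaving out single arrays of the pericycle ended some of these calls beside those given with the genes above. The difference of 255591_at from the other sorted tissues was lost without mock array 2 or auxin array 1, that of AT1G22670 without mock array 2, auxin array 1 or auxin array 3, that of ATJ1 without mock array 1, auxin array 1 or auxin array 3, and that of AT5G62330 without auxin array 3. The differences of AT3G56500 and AT5G48900 from the other sorted tissues were lost in 20 of 34 and 24 of 35 alternatives. Against the stele, AT1G51750 was lost without pericycle auxin array 3, AT4G19720 and AT4G22610 without that array or stele auxin array 2, and AT3G46650 in 12 of 23 alternatives.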

How the results depend on the processing

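The 2326 probe sets called for the pericycle response became 1143 when 1 probe set per named gene was fitted (9321 tested), 1409 with array weights and 904 with the 6 pericycle arrays alone (fewer samples), and 1725 to 1956 when each pericycle array was left out in turn. The 219 differences from the mean of the other sorted tissues became 133 with a pseudocount of 1, 91 with 1 probe set per named gene, 137 with array weights and 134 over the 24 sorted arrays, and ran from 124 to 300 when any array was left out. The 278 differences from the stele became 184 with a pseudocount of 1, 447 with a pseudocount of 64, 116 with 1 probe set per named gene and 173 over the 24 sorted arrays, and ran from 135 to 399 without single arrays. The 1186 differences from intact roots became 524 with 1 probe set per named gene and ran from 819 to 1196. Leaving out arrays of the other tissues was chosen after seeing the data. Where a cause is not named here, it was not tested. Arrays with the same replicate number deviated together at most weakly in the pericycle (r of deviations from the group means 0.093, 0.038 and 0.023). For unlike numbers r ran from -0.096 to 0.061. The main fit did not take the numbers as pairs, and the other tissues were not checked in this way. With the mock and auxin arrays of 1 tissue and replicate number as a block, the counts were 2947, 327, 494 and 1556, each above the main count. Of 125 named results that were called, 74 were called under every alternative run, and of 77 that were not, 21 were called under at least 1; no called result changed direction. Low signals are 1 limit: adding 1 in place of 16 lost the AT1G64405 difference from the other sorted tissues and from the stele.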
